A study of Mus musculus with 16 samples.

Results

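The genes described here belong to the Notch pathway: the receptors Notch1, Notch2 and Notch3, the ligands Jag1, Jag2 and Dll1, the receptor modifier Lfng, and the target genes Hes1, Hey1 and Hey2. They were taken by symbol from a deposited table of messenger RNA levels, and all 10 were found among its 30286 distinct symbols, each in 1 row. The samples were facial prominences of C57BL/6 mouse embryos at embryonic day 12, separated by surgery into surface ectoderm and the mesenchyme below it. Wild-type (WT) embryos were compared with Esrp1-/- embryos, called knockout (KO) here, which lack a splicing regulator of epithelial cells. Both layers of both genotypes make up 4 groups. For each there were 4 libraries, every one of them from 6 to 7 pooled embryos. The labels name no other allele or treatment in any group and do not say which part of Esrp1 is deleted.

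Notch signalling passes between touching cells. A ligand of the Jagged or Delta-like type on the surface of a cell binds a Notch receptor on its neighbour, proteases then free the intracellular part of the receptor, and this part joins the DNA-binding protein Rbpj in the nucleus to switch on genes of the Hes and Hey families. Fringe enzymes such as Lfng add sugars to the receptor and so change which ligands it responds to. In the developing palate and mouth, Jag2 made by the surface epithelium is known to act through Notch1 and to be needed for the palatal shelves to stay free of the tongue. In blood vessels Notch1, Notch4, Dll4 and the Hey genes act in endothelial cells and Notch3 in the mural cells around them.

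The table gives 1 value per group and none per library, in TPM, a unit scaled for the size of the library and the length of the transcript. Values below therefore carry no error, no difference has a replicate check, and the depth behind a value is unknown. "Higher" and "lower" describe these deposited values. Log2 ratios were computed after adding 1 to each TPM, so that differences of weakly expressed genes come out too small. A gene was counted when the ratio reached 1.5-fold for KO over WT or 2-fold for one layer over the other, provided that its 2 values averaged 1 TPM or more. In bulk tissue, fewer cells of a type and less RNA per cell cannot be told apart.

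The labelled layers carried their own markers. The 12 epithelial markers summed to 3109 TPM in WT and 2617 TPM in KO ectoderm, against 26.6 and 27.6 TPM in mesenchyme. The 16 mesenchyme markers summed to 211, 529, 2964 and 1896 TPM in the same order, so the sum in KO ectoderm was 2.5 times that of WT. The targeted gene, Esrp1, had 170 TPM in ectoderm of WT and 62.9 TPM in that of KO, and 1.01 and 1.0 TPM in mesenchyme. Its RNA was thus lower in KO ectoderm but not gone, and without the deleted part being named this is a limited check of the genotype. Some libraries carry 2 index barcodes instead of 1, namely 1 of the WT and 2 of the KO ectoderm libraries and 0 of the WT and 2 of the KO mesenchyme libraries; the effect of this was not tested.

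Among the receptors, Notch1 was the main receptor of ectoderm. Notch1 (chromosome 2, 26457903 to 26516663, minus strand, GRCm38) was at 75.2 TPM in WT and 69.8 TPM in KO ectoderm, against 27.1 TPM in WT and 16.4 TPM in KO mesenchyme. Both ectoderm values lay above both mesenchyme values. Notch2 (chromosome 3, 98013527 to 98150361, plus strand) had the opposite order in WT tissue, with 15.3 TPM in WT ectoderm and 35.9 in WT mesenchyme. Its values in KO tissue, 17.1 TPM in ectoderm and 17.5 in mesenchyme, were nearly level. Notch3 (chromosome 17, 32120820 to 32166852, minus strand) was at 26.1 TPM in WT and 36.9 TPM in KO ectoderm, against 42.6 TPM in WT and 18.8 TPM in KO mesenchyme. WT mesenchyme was thus the highest of the 4 groups for Notch2 and Notch3, and KO mesenchyme the lowest for Notch1 and Notch3.

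Together with Notch4, a receptor of endothelial cells, the 4 receptors summed to 117 TPM in WT ectoderm and 115 in WT mesenchyme, close to each other, but with a different make-up. Notch1 held 64.0% of the sum in WT ectoderm and 23.6% in WT mesenchyme. Notch2 and Notch3 held 31.3% and 37.1% in WT mesenchyme, and 13.1% and 22.2% in WT ectoderm. In KO ectoderm the sum was 126 TPM, with 55.3% from Notch1 and 29.2% from Notch3. In KO mesenchyme it was 57.7 TPM, with 28.4%, 30.3% and 32.6% from Notch1, Notch2 and Notch3.

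Jag2 made up most of the ligand RNA of ectoderm, while Dll1 and Dll4 were higher in WT mesenchyme. Jag2 (chromosome 12, 112907819 to 112929776, minus strand) was at 67.2 TPM in WT and 76.4 TPM in KO ectoderm, against 3.73 TPM in WT and 3.09 TPM in KO mesenchyme, an 18.0-fold difference between the WT layers. It had the largest ratio between ectoderm and mesenchyme of the 10 genes, in WT (log2 ratio 3.85) and in KO tissue (4.24). Jag1 (chromosome 2, 137081456 to 137116644, minus strand), the other Jagged ligand, was more even, at 32.7 TPM in WT and 31.98 TPM in KO ectoderm, against 20.1 TPM in WT and 16.1 TPM in KO mesenchyme. Dll1 (chromosome 17, 15367354 to 15376872, minus strand), a ligand of neural and somite progenitors, was low everywhere, at 2.21, 2.53, 5.19 and 3.91 TPM in the same order. The 5 canonical ligands, with Dll3 and Dll4 added, summed to 103 TPM in WT ectoderm, of which Jag2 gave 65.1%, and to 35.6 TPM in WT mesenchyme, of which Jag1 gave 56.6% and Dll4 16.7%. Dll4, the ligand of arterial endothelium, had 0.44 TPM in ectoderm and 5.95 TPM in mesenchyme of WT.

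**Figure D1:**
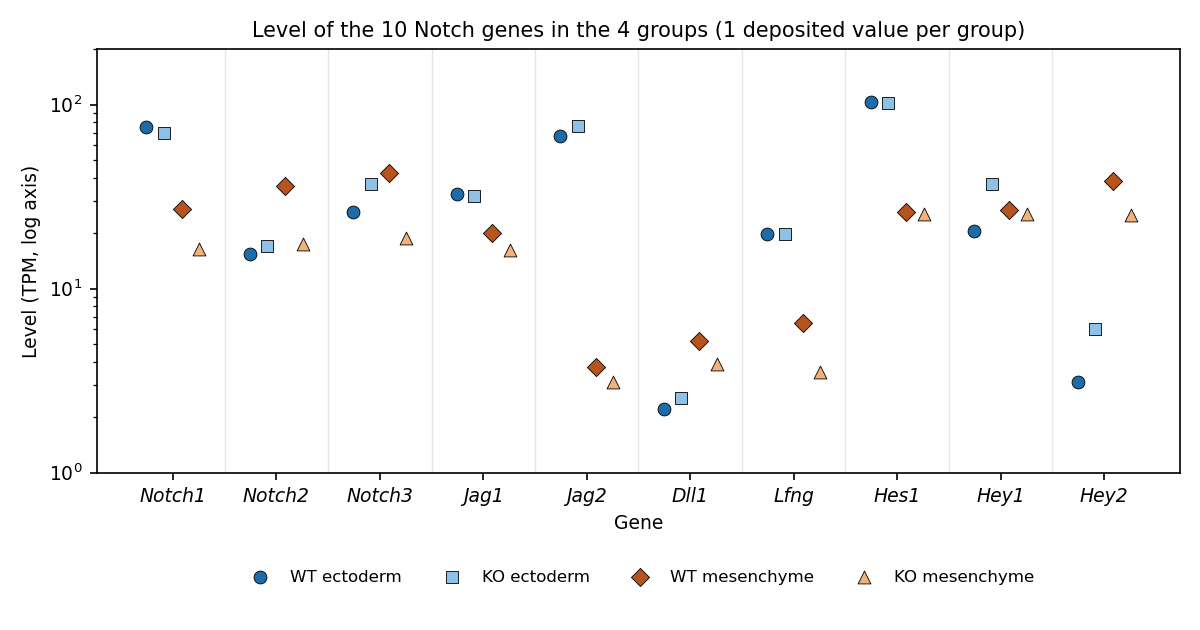
Level of each of the 10 genes in TPM on a log axis, with 1 point per group (circle WT ectoderm, square KO ectoderm, diamond WT mesenchyme, triangle KO mesenchyme). Jag2, Hes1, Notch1 and Lfng have both ectoderm points above both mesenchyme points by 2-fold or more, Hey2 and Dll1 have both below, and the KO mesenchyme points of Notch1, Notch2 and Notch3 (16.4 to 18.8 TPM) lie under the WT ones (27.1 to 42.6 TPM).

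Lfng, the lunatic fringe enzyme, followed Notch1 and Jag2 in its layer. Lfng (chromosome 5, 140607320 to 140615545, plus strand) was at 19.8 TPM in WT and 19.9 TPM in KO ectoderm, against 6.51 TPM in WT and 3.52 TPM in KO mesenchyme. The other fringes differed from it: Mfng was at 4.50, 10.1, 16.1 and 14.8 TPM in that order, and Rfng at 25.97, 28.1, 35.7 and 17.8. Lfng gave 39.4% of the TPM of the 3 fringes in WT ectoderm and 11.2% in WT mesenchyme.

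The target genes split between the layers. Hes1 (chromosome 16, 30064384 to 30067796, plus strand), a repressor induced by Notch in many tissues, was the highest of the 10 genes in ectoderm, with 104 TPM in WT and 103 in KO, against 26.1 and 25.4 TPM in WT and KO mesenchyme. Hey1 (chromosome 3, 8663359 to 8667256, minus strand), a related repressor, was at 20.5 TPM in WT and 37.2 TPM in KO ectoderm, against 26.6 TPM in WT and 25.5 TPM in KO mesenchyme. KO ectoderm held the highest Hey1 level of the 4 groups. Hey2 (chromosome 10, 30832359 to 30842801, minus strand), the paralog best known from heart and arteries, was at 3.09, 6.0, 38.6 and 25.2 TPM in the same order. In WT tissue the mesenchyme level was 12.5 times the ectoderm level, and of the 10 genes it had the lowest log2 ratio of ectoderm over mesenchyme, -3.27.

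Between the WT layers, 4 of the 10 genes were at least 2-fold higher in ectoderm (Notch1, Jag2, Hes1 and Lfng) and 2 in mesenchyme (Notch2 and Hey2). Of 14242 genes measured, 6.88% were higher in ectoderm and 12.1% in mesenchyme at that size. The median log2 ratio of the 10 genes was 0.16, beside -0.15 over all genes. After a trend with transcript GC content was subtracted, Notch2 stood at -0.96, just inside 2-fold, and 1 gene, Hey2, was left as 2-fold higher in mesenchyme (9.9% of all genes).

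**Figure D2:**
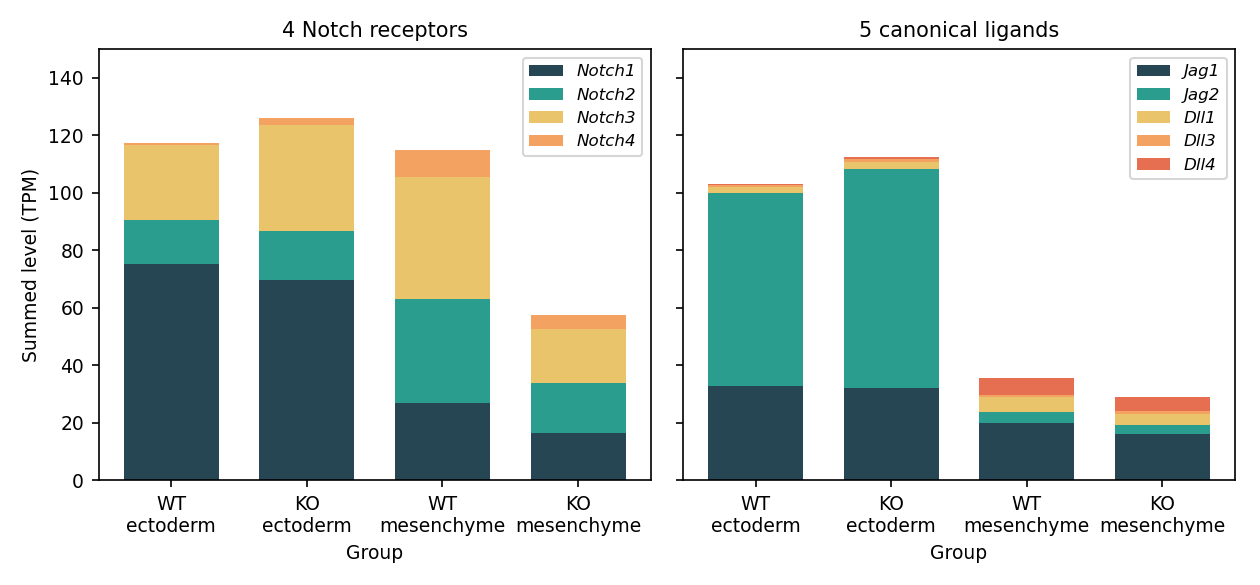
Summed level in TPM of the 4 Notch receptors (left) and the 5 canonical ligands (right) in each group, with each gene's part of the bar in its own colour. The receptor sums are 117, 126, 115 and 57.7 TPM from left to right and the ligand sums 103, 112, 35.6 and 28.8 TPM; Notch1 and Jag2 fill most of the ectoderm bars.

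Rbpj binds DNA at sites with the core letters TGGGAA, and the longer form CGTGGGAA is the one usually drawn for it. Promoter windows of RefSeq (GRCm38.p6, around a start site) were found for 8 of the 10 genes, and both strands were searched for CGTGGGAA. Hes1 and Hey1 had no window, so their promoters were not searched for CGTGGGAA. It occurred in the windows of Hey2 (2 matches) and Lfng (1 match) and in 241 of all 32851 windows (0.734%). Hey2 and Lfng are shown because no other of the 8 genes had a match. The stretch before the start site is printed in the direction of the gene, up to the earlier of the RefSeq and GENCODE starts, with the match in capitals (TTCCCACG is the same motif on the other strand). Hey2 is chr10:30842802-30843033, minus strand, and Lfng chr5:140607091-140607319, plus strand.
Hey2: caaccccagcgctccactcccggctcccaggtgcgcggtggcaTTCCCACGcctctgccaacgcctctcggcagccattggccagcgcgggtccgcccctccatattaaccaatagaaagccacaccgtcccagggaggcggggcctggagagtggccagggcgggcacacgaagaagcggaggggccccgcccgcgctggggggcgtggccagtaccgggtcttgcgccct
Lfng: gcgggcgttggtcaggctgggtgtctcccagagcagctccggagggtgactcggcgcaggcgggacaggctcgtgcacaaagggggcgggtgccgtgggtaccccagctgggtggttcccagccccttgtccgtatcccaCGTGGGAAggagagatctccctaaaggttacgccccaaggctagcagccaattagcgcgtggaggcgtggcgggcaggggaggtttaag
The capitals begin 207 bases before the RefSeq start in Hey2 and 110 bases before it in Lfng. The other match of Hey2 begins 5 bases before the start and is not printed. In Lfng the match overlaps CACGTG, a motif of Hes and Hey proteins that 7.15% of all windows hold. A match describes the letters only and shows no binding.

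In KO ectoderm, the ligands, Lfng, Hes1 and the receptors Notch1 and Notch2 stayed close to their WT values, and Hey1 and Hey2 were higher. The log2 ratios of KO over WT were -0.11 for Notch1, 0.15 for Notch2, -0.03 for Jag1, 0.18 for Jag2, 0.14 for Dll1, 0.00 for Lfng and -0.02 for Hes1. Notch3 was 1.41 times its WT value (log2 ratio 0.48, and 0.29 after the GC correction), within 1.5-fold. Hey1 had a log2 ratio of 0.83, or 1.81 times the WT value, and Hey2 of 0.78, or 1.94 times. So 2 of the 10 passed 1.5-fold upward and 0 downward. Over all 13935 genes measured, 4.92% were higher and 0.452% lower at that size. The median of the 10 genes was 0.14 and that of all genes 0.05, and after the GC correction it was -0.01, with Hey1 (0.79) and Hey2 (0.78) still past 1.5-fold, as were 4.1% of all genes upward and 0.651% downward. Of the 10 genes, 3 had ratios below 0.

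Mesenchyme markers were higher in KO ectoderm too, so each gain was set against the difference between the WT layers. For a gene with more TPM in WT mesenchyme, the KO minus WT difference in ectoderm was expressed as a percentage of its mesenchyme minus ectoderm difference in WT. Among the 14 of 16 mesenchyme markers with a WT mesenchyme level 5 times that of WT ectoderm or more, the median was 11.1% (quartiles 9.47 to 12.95). Hey2 was at 8.20%, Notch2 at 8.80% and Dll1 at 10.7%, near or slightly under these quartiles. Notch3 stood at 65.3%, with a gain of 10.8 TPM against a layer difference of 16.6 TPM. Hey1 stood at 273%, with a gain of 16.7 TPM against a layer difference of 6.11 TPM, since its level in KO ectoderm was above that of either mesenchyme group.

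Subtracting the 11.1% share of WT mesenchyme from KO ectoderm, and scaling up what remained, left Hey1 at 38.5 TPM (log2 ratio 0.88) and Notch3 at 36.2 TPM (0.46). Hey2 came out below its WT value, at 1.93 TPM (-0.48). Hey1 was then the 1 gene of the 10 past 1.5-fold, beside 2.58% of all genes higher and 0.745% lower. Of all genes past 1.5-fold in ectoderm, 91.6% were higher as deposited, 77.6% after this subtraction and 78.1% after quantile normalization. With KO mesenchyme as the source, where the share was 18.4%, Hey1 was at 39.8 TPM (0.93), Notch3 at 40.96 TPM (0.63) and Hey2 at 1.66 TPM (-0.62). All 3 were then past 1.5-fold, Hey2 downward, beside 3.06% of all genes higher and 1.51% lower. The 12 endothelial markers, which mark cells that use Notch4, Dll4, Hey1 and Hey2, summed to 16.0 TPM in WT ectoderm and 50.1 in KO ectoderm. All 12 were higher, none was at 0 in either group, and the median gain was 10.05% of the layer difference over the 11 that were 5-fold higher in WT mesenchyme. Of the 12, 6 were under 1 TPM in WT and 1 in KO ectoderm. The 8 pericyte and smooth muscle markers, cells that use Notch3, summed to 33.4 and 59.1 TPM, with all 8 higher, none at 0 and a median gain of 15.3% over 4 of them. Of these 8 markers, 6 were under 1 TPM in WT and 4 in KO ectoderm, so most of their differences are between values near 0. Between the WT layers 5 of the 8 were measured, and 4 of these were at least 2-fold higher in mesenchyme. The other, Tagln, was higher in ectoderm (log2 ratio of ectoderm over mesenchyme 0.47), so the sum also holds RNA that was not higher in mesenchyme. The 10 neuron and neurogenic placode markers summed to 39.0 and 68.0 TPM, with 8 of 10 higher and none at 0, though 3 were under 1 TPM in WT and 1 in KO. The 6 red blood cell markers summed to 3104 TPM in WT and 3233 TPM in KO ectoderm, 1.04 times WT, with 5 of 6 higher. In WT mesenchyme they summed to 12683 TPM, so this list rose little although it was higher in mesenchyme. The 6 macrophage markers summed to 10.8 TPM in WT and 19.15 TPM in KO ectoderm, with all 6 higher, and to 42.2 TPM in WT mesenchyme. The part of these cell types in the Notch gene values was not tested beyond the subtraction.

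**Figure D3:**
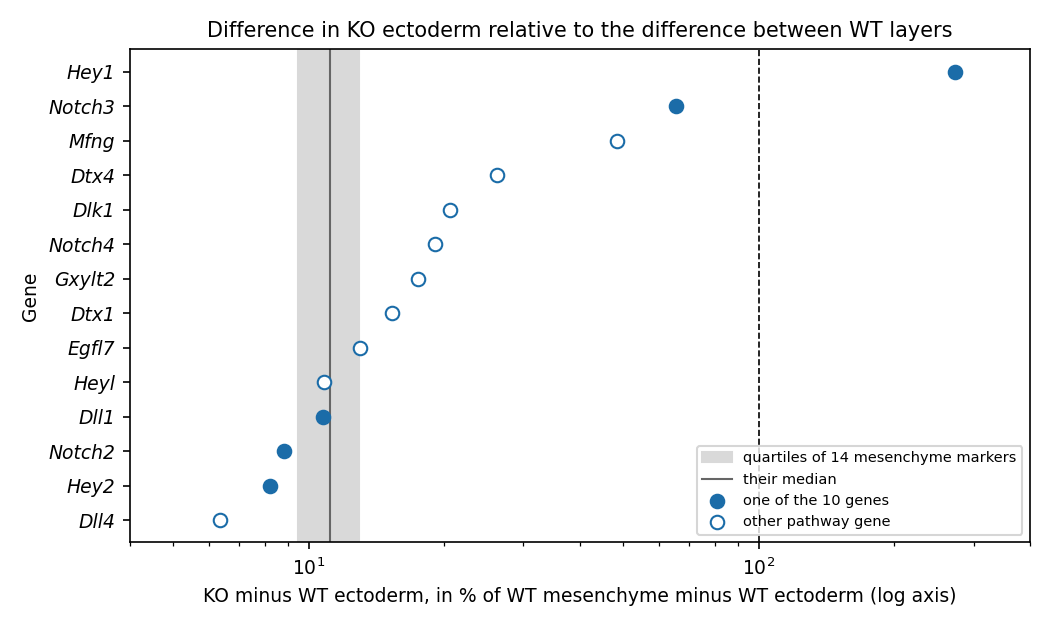
Difference between KO and WT ectoderm in percent of the difference between WT mesenchyme and WT ectoderm (log axis), for the 5 of the 10 genes with more TPM in WT mesenchyme (filled) and the other pathway genes at least 2-fold higher there (open). The grey band holds the quartiles of 14 mesenchyme markers (9.47% to 12.95%), the dashed line marks 100%, and Hey1 (273%) and Notch3 (65.3%) lie farthest to the right.

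In KO mesenchyme, the 3 receptors were lower, as were Hey2 and Lfng, while Hes1 and Hey1 were level. The log2 ratios were -1.14 for Notch3 (18.8 against 42.6 TPM, 44.1% of WT), -1.0 for Notch2 (17.5 against 35.9 TPM, 48.7%), -0.73 for Lfng (3.52 against 6.51 TPM), -0.69 for Notch1 (16.4 against 27.1 TPM, 60.5%) and -0.59 for Hey2 (25.2 against 38.6 TPM), which lies just past 1.5-fold. Hes1 (-0.04) and Hey1 (-0.06) hardly differed from WT, and the ligands stood at -0.33 (Dll1), -0.30 (Jag1) and -0.21 (Jag2). So 5 of the 10 passed 1.5-fold downward and 0 upward, while 13.4% of all 14233 genes were lower and 2.33% higher at that size. The median of the 10 genes was -0.46, beside -0.12 over all genes.

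Ratios in mesenchyme moved with the GC content of the transcripts. Over all genes the median log2 ratio was 0.16 in the fifth of genes with the lowest GC and -0.46 in the fifth with the highest. Transcript GC was 60.3% for Notch3, 58.8% for Lfng, 55.0% for Notch1, 53.6% for Notch2 and 45.9% for Hey2. After subtraction of this trend, Notch2 was at -0.69, Hey2 at -0.62 and Notch3 at -0.59, all still past 1.5-fold, beside 2.43% of all genes lower and 4.52% higher. Notch1 (-0.32) and Lfng (-0.22) were then within 1.5-fold, the median of the 10 genes was -0.21, and the ratios of Jag2 (0.36), Dll1 (0.13), Hey1 (0.20) and Hes1 (0.14) lay above 0. When transcript length was corrected as well, 1 of the 10, Notch2, was lower by 1.5-fold (2.2% of all genes were lower and 3.43% higher), and Hey2 (-0.56) and Notch3 (-0.47) were just inside.

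Scaling mattered here too. The correction for GC moved the median of all genes in mesenchyme from -0.12 to 0.03, and quantile normalization moved it to 0.02. Of all genes past 1.5-fold, 14.9% were higher as deposited, 39.8% after quantile normalization and 65.0% after the GC correction. Quantile normalization left 3 of the 10 genes lower, namely Notch2, Notch3 and Lfng (6.88% of all genes were lower and 4.54% higher). In KO mesenchyme the endothelial markers summed to 269 TPM against 342 in WT (8 of 12 lower), the pericyte and smooth muscle markers to 108 against 115 (5 of 8 lower), and the mesenchyme markers to 1896 against 2964 (14 of 16 lower). The neuron and placode markers summed to 228 against 149 TPM (3 of 10 lower, 1 at 0 in WT). No marker of the first 3 lists was at 0 in either mesenchyme group, and their part in the Notch values was not tested.

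**Figure D4:**
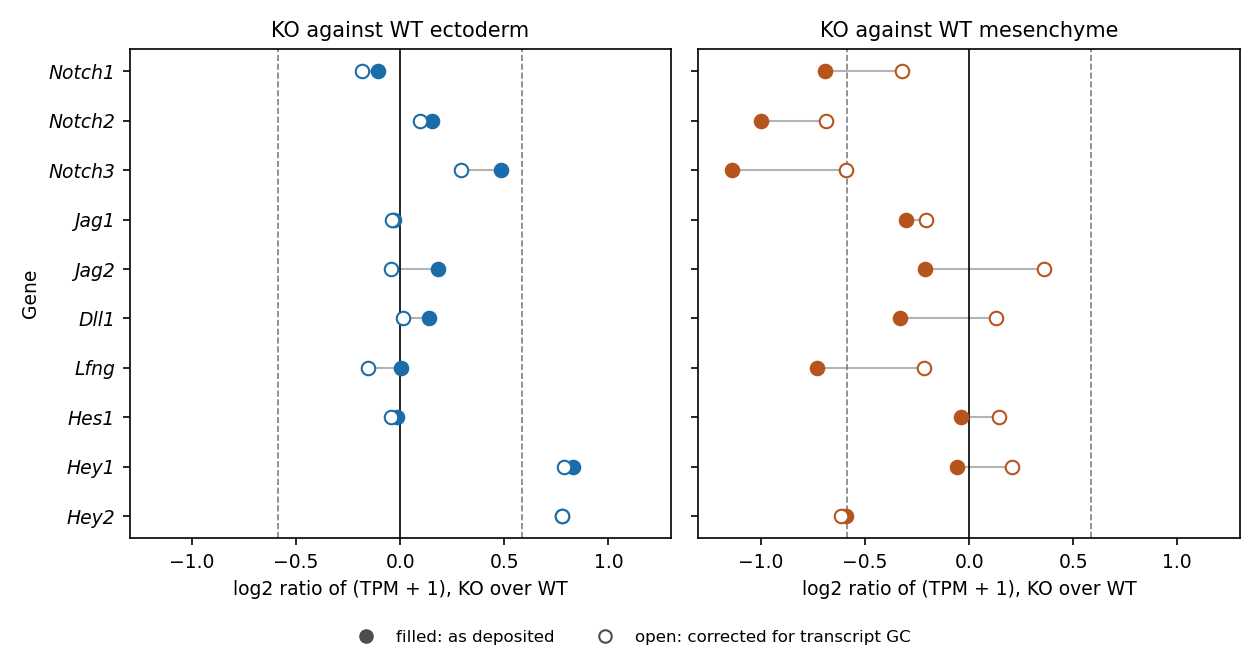
Log2 ratio of KO over WT for the 10 genes in ectoderm (left) and mesenchyme (right), as deposited (filled) and after correction for transcript GC (open), with dashed lines at 1.5-fold. Hey1 and Hey2 lie right of the line in ectoderm; in mesenchyme Notch2, Notch3 and Hey2 lie left of it in both forms, and Notch1 and Lfng as deposited only.

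The order of the layers differed between WT and KO tissue for some of these genes. By plain TPM, Notch3 was 1.63-fold higher in mesenchyme than in ectoderm in WT and 1.96-fold higher in ectoderm in KO. After the GC correction its log2 ratio of ectoderm over mesenchyme was smaller, at -0.38 in WT and 0.51 in KO. Notch2 was 2.34-fold higher in mesenchyme in WT and nearly level in KO (log2 ratio of ectoderm over mesenchyme -0.03). Hey2 was higher in mesenchyme in both, by 12.5-fold in WT and 4.21-fold in KO. Hes1 kept a difference of 3.99-fold in WT and 4.04-fold in KO in favour of ectoderm. Between the KO layers 4 of the 10 genes were at least 2-fold higher in ectoderm and 1, Hey2, in mesenchyme (9.06% and 6.88% of all genes), with a median of 0.94 beside 0.00 over all genes. The KO effect in ectoderm minus that in mesenchyme was largest for Notch3 (1.62), Hey2 (1.37) and Notch2 (1.15), the 3 of 10 past 2-fold, where 7.34% of all genes were and 0.593% lay past 2-fold in the other direction. The median over the 10 was 0.66 and over all genes 0.19. After the GC correction Hey2 (1.39) alone of the 10 was past 2-fold, with Notch3 at 0.87 and Notch2 at 0.78, beside 2.17% of all genes higher and 1.15% lower. With the WT mesenchyme share subtracted from KO ectoderm instead, the difference was 1.6 for Notch3, 0.95 for Notch2 and 0.11 for Hey2. These effects were not tested for a difference.

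Other parts of the pathway were described by a list of 59 genes, of which 53 were measured in each KO comparison. In ectoderm 6 of the 53 passed 1.5-fold upward in KO and 0 downward, and the median of the 53 was 0.08, where 4.92% of all genes passed upward and 0.452% downward. In mesenchyme 15 passed it downward and 0 upward, and the median was -0.25, where 13.4% of all genes passed downward and 2.33% upward. After the GC correction 6 of 52 were higher in ectoderm (4.1% of all genes), and 4 of 52 were lower in mesenchyme (2.43% of all genes), among them Dlk1, Gxylt2 and Maml1, with a median of -0.01. With the WT mesenchyme share subtracted, 3 of 52 were higher in KO ectoderm, namely Dlk1, Mfng and Bhlhe40 (2.58% of all genes), and Notch4, Egfl7 and Gxylt2 were not. This depended on the source of the share. With the KO mesenchyme share subtracted, 6 of 52 were higher, namely Notch4, Dlk1, Mfng, Gxylt2, Furin and Bhlhe40 (3.06% of all genes).

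The remaining receptor, Notch4, was at 0.86 TPM in WT and 2.45 TPM in KO ectoderm, against 9.19 TPM in WT and 5.04 TPM in KO mesenchyme. In ectoderm its ratio was 0.89, or 0.49 and 0.62 after subtraction of the WT and the KO mesenchyme share. In mesenchyme it was -0.75, or -0.19 after the GC correction. Dlk1, a noncanonical ligand of stromal and precursor cells, had the largest ratios of the list, with 29.5 TPM in WT and 77.9 TPM in KO ectoderm, against 264 TPM in WT and 102 TPM in KO mesenchyme. These are log2 ratios of 1.37 and -1.37, and of 1.22 and -0.87 after the GC correction. The 7 skeletal muscle markers, whose cells carry Dlk1, summed to 16.3 TPM in WT and 65.1 TPM in KO ectoderm and to 313 and 231 TPM in mesenchyme, none at 0; their part in the value of Dlk1 was not tested. Egfl7, a secreted protein of endothelial cells, was at 11.9, 21.3, 84.4 and 64.6 TPM in that order. Dll3 stayed between 0.58 and 1.13 TPM in the 4 groups.

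Of 7 further enzymes that add sugars to Notch, Mfng and Gxylt2 were higher in KO ectoderm (4.92% of all genes), and Rfng and Gxylt2 lower in KO mesenchyme (13.4% of all genes). Mfng, the manic fringe, had a log2 ratio of 1.02 in ectoderm and of 0.91 or 0.87 with the WT or KO mesenchyme share subtracted. Its gain was 48.4% of the layer difference. Rfng, the radical fringe, had -0.97 in mesenchyme and -0.43 after the GC correction. Gxylt2, a xylosyltransferase, was at 2.28 TPM in WT and 5.54 TPM in KO ectoderm, against 20.9 TPM in WT and 12.6 TPM in KO mesenchyme. Its gain was 17.5% of the layer difference. Its log2 ratio of 1.0 in ectoderm was 0.49 with the WT and 0.59 with the KO mesenchyme share subtracted.

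The proteases and the nuclear complex were nearly the same in WT and KO ectoderm. None of 10 protease genes and none of 12 nuclear genes was 1.5-fold apart there, with medians of 0.01 and 0.05, beside 4.92% of all genes higher and 0.452% lower. Rbpj, the DNA-binding partner of every Notch receptor, was at 45.9 TPM in WT and 46.8 TPM in KO ectoderm, against 66.3 TPM in WT and 55.7 TPM in KO mesenchyme. In KO mesenchyme 3 of 10 protease genes were lower, beside 13.4% of all genes: Furin, which cuts the receptor on its way to the surface (12.9 against 26.9 TPM), and the gamma-secretase subunits Aph1a (22.0 against 39.4 TPM) and Ncstn (66.5 against 102 TPM). None of these was past 1.5-fold after the GC correction, when 2.43% of all genes were lower. Nuclear genes lower there included Maml1, a coactivator (14.7 against 34.4 TPM), and Spen, a corepressor (12.5 against 21.4 TPM). After the GC correction Maml1 (-0.82) was still past 1.5-fold and Spen (-0.26) was not.

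Genes of ligand endocytosis and Notch turnover showed no member of 13 that was 1.5-fold apart in KO ectoderm, where 4.92% of all genes were higher and 0.452% lower. Their median log2 ratio was 0.16, with 9 above 0 and 4 below. The largest was that of Dtx4, at 0.55 (3.05 against 1.76 TPM). By plain TPM, without the added 1, Dtx4 was 1.73 times its WT value. In KO mesenchyme 4 of 13 were lower (13.4% of all genes), none of them after the GC correction (2.43%). These were Dtx1 (3.49 against 7.88 TPM), Numbl (13.5 against 24.3 TPM), Neurl1a (2.92 against 5.48 TPM) and Dtx2 (12.1 against 18.99 TPM). Mib1, the ligase that drives ligand endocytosis, was at 51.9 and 48.9 TPM in WT and KO ectoderm and 45.4 and 46.8 TPM in WT and KO mesenchyme.

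The remaining list held 9 other target and feedback genes. Nrarp, a feedback inhibitor induced by Notch, was at 28.7 TPM in WT and 23.95 TPM in KO ectoderm, against 5.44 TPM in WT and 4.32 TPM in KO mesenchyme, higher in ectoderm as Hes1 was. Heyl, the third Hey gene, was at 2.27, 2.81, 7.26 and 4.04 TPM, with a log2 ratio of -0.71 in mesenchyme and of -0.33 after the GC correction. Hes6, a gene of neural and muscle precursors, was at 44.8, 57.8, 41.9 and 38.6 TPM. Bhlhe40, which responds to many signals besides Notch, was the 1 of 5 measured that passed 1.5-fold upward in KO ectoderm (8.04 against 4.27 TPM). Of all genes, 4.92% passed it upward. Hes5, the Notch target of neural progenitors, was between 0.33 and 0.67 TPM in the 4 groups, and Hes2, Hes3 and Hes7 were under 1 TPM in each.

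**Figure D5:**
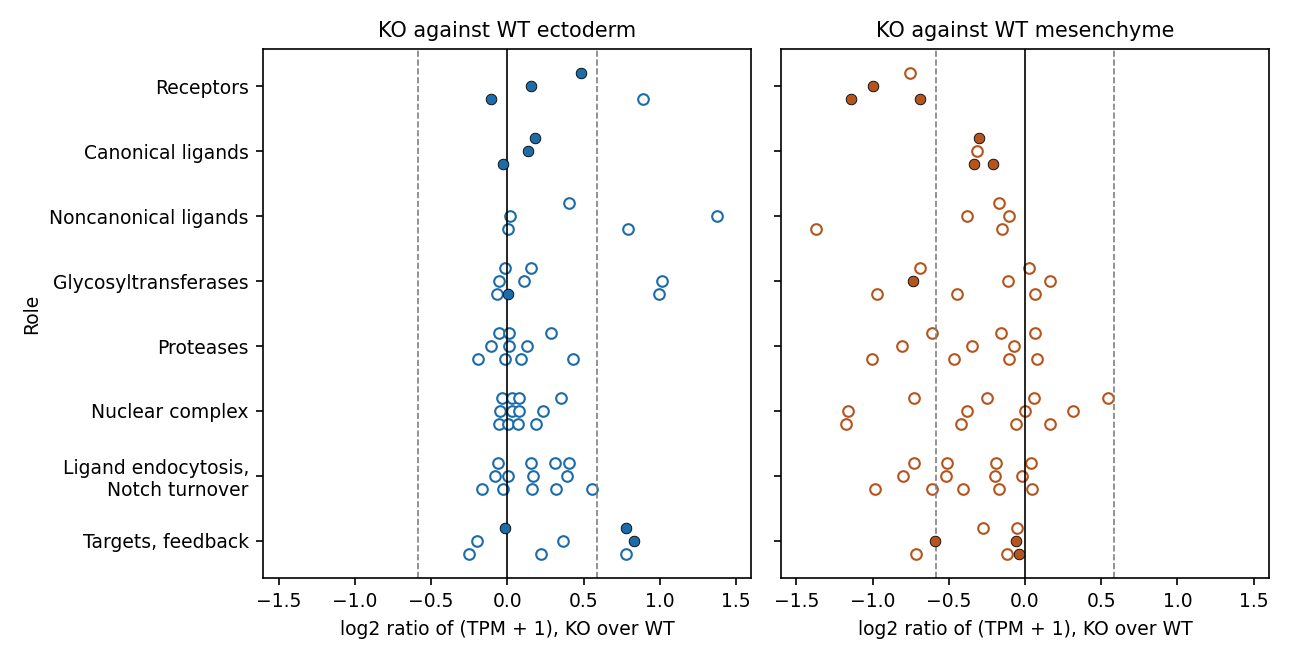
Log2 ratio of KO over WT for the genes of the pathway by role, in ectoderm (left) and mesenchyme (right), with the 10 genes filled, the other pathway genes open and dashed lines at 1.5-fold. In ectoderm most points lie between the lines, and in mesenchyme 20 points in all (5 filled and 15 open) lie left of the lower line.

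Genes most like a member across the groups were sought by the distance between log2 values centred over the 4 groups. The search covered 10590 genes averaging 5 TPM or more, with predicted gene models left out of the search and of the counts. With 4 values per gene, many genes come close by this measure. The nearest to Jag2 were Cnksr1, Ezr and Rab25, at distances from 0.09 to 0.20, and 53 genes lay within 0.5. Those nearest to Notch1 were Sik1, Zhx2 and Myh9 (0.06 to 0.12, 148 genes within 0.5). Notch3 was closest to Ptov1, Zfp574 and Gas2l1 (0.09 to 0.12), and 760 genes lay within 0.5 of it. Hey1 was closest to Mapk12, Id3 and Ggact (0.17 to 0.19, 288 genes within 0.5). Id3, a gene induced by Bmp signals, was at 210 TPM in WT and 327 TPM in KO ectoderm, against 229 TPM in WT and 224 TPM in KO mesenchyme.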

How the data were processed

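RNA of 16 libraries, 4 per group, was sequenced by the authors. The submitters' processing notes name STAR 2.5.2a, kallisto 0.43.0 and mm10 (the assembly GRCm38). The authors deposited TPM per gene symbol, 1 column per group. The tool behind the TPM, its annotation, its use of strand and how libraries were merged: not given in the sources used here. Because the TPM hold no value per library, the limma fit planned for values per library was not run and there is no p-value.

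Of 30391 rows, 1 per symbol (the highest sum) was kept. Column sums ran from 917993 to 977371 TPM. Log2 ratios used TPM + 1 and genes averaging 1 TPM or more. Genes named were the 10 members, a fixed set of other pathway genes, and up to 4 members per list beyond 1.5-fold, and the 3 genes nearest in pattern to Jag2, Notch1, Notch3 and Hey1; a few more were named after their values were seen, and 1 gene is not reported here. Members and lists were chosen with earlier results of these data known. Positions, GC content and length (median over a gene's coding transcripts) were read from GENCODE M21 (GRCm38), matching 99.3% of symbols. GC and length trends were fitted by lowess (fraction 0.3, genes averaging 5 TPM or more; statsmodels 0.14.6). To subtract a mesenchyme share, that part of the mesenchyme TPM was taken from KO ectoderm and the rest divided by 1 minus the share. The log2 ratios, the calls at 1.5-fold and the removal of a GC trend were tested on simulated data. The other steps, such as subtracting a mesenchyme share, were not. GENCODE places antisense or other transcripts over Notch1, Notch3 and Dll1, whose reads could be mixed in without strand.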

Additional observations from a re-analysis of the deposited data

How the results depend on the processing

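No paired analysis was possible because the table has 1 value per group; the replicate block, the limma fit and leaving out each library were not run for the same reason, and the precision that depth gives is unknown. In 13 alternative settings, 2 of them chosen after seeing the data (the KO mesenchyme share, and GC with length), 703 of 801 single-gene values kept their sign and their side of the fold threshold, 35 were no longer past it and 5 were newly past it. Another 56, 33 of them of the 10 genes, changed sign within the threshold. The 2 values that changed sign with either value past the threshold were Hey2 in ectoderm, at -0.48 with the WT and -0.62 with the KO mesenchyme share subtracted. Some settings could not move a single-gene value. Changing the filter on low values alters only which genes are kept. Summing the rows of one symbol leaves a gene with 1 row, as each of the 10 has, unchanged. Such values are among those counted as kept. For KO against WT ectoderm the count of 2 genes past 1.5-fold was 1 with a pseudocount of 5, with a filter at 5 TPM, after quantile normalization and with the WT mesenchyme share subtracted. Of all genes, 1.72%, 2.92%, 3.32% and 2.58% were higher in these settings in that order, beside 4.92% in the main one. The shares lower were 0.208%, 0.369%, 0.931% and 0.745%, beside 0.452%. The median of the 10 genes there (0.14) was 0.018 after quantile normalization, -0.013 corrected for GC and -0.0073 corrected for GC and length. For KO against WT mesenchyme the count of 5 was 3 after quantile normalization, 3 with the median of all genes subtracted, 3 corrected for GC, 2 corrected for length, 2 with a pseudocount of 5 and 1 corrected for GC and length. Of all genes, 6.88%, 8.18%, 2.43%, 6.24%, 8.0% and 2.2% were lower in these settings in that order, beside 13.4% in the main one. The shares higher were 4.54%, 4.15%, 4.52%, 4.74%, 0.836% and 3.43%, beside 2.33%. The median there (-0.46) was -0.34 with a pseudocount of 5, -0.64 with a filter at 5 TPM, -0.30 after quantile normalization, -0.34 with the median of all genes subtracted, -0.21 corrected for GC, -0.26 for length and -0.14 for both. The total counts past 2-fold between layers, higher and lower together, stayed within 1.5 times the main ones; of the 2 genes higher in WT mesenchyme, Notch2 was inside 2-fold after the GC correction. The median between WT layers (0.16) was 0.67 with a filter at 5 TPM, 0.32 after quantile normalization, 0.30 with the median of all genes subtracted, 0.31 corrected for GC, 0.30 for length and 0.33 for both. The median between KO layers (0.94) was 0.81 with a pseudocount of 5, 0.74 corrected for GC and 0.66 for GC and length. The filter at 5 TPM tests fewer genes by construction; the cause of the other shifts was not tested.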
